A study of Mus with 6 samples.

Results

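The 9 genes described here, Mbp, Mobp, Cldn11, Cnp, Mag, Mog, Opalin, Ermn and Tspan2, encode structural proteins of central myelin. They were taken by symbol from the 54532 genes of the deposited table, and each symbol matched 1 row. RNA sequencing libraries came from tissue labelled as basolateral amygdala of male mice, 3 wild type (WT) and 3 labelled as Cntnap4 knockouts (KO). Age, strain, the deleted part of Cntnap4 and any pooling of animals are not named in the sources used here, and no treated group was analysed. The comparison asks which transcripts differ between the genotypes, and within this group how Mbp stands against the other 8 genes.

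Central myelin is made by oligodendrocytes, which wrap axons in many turns of membrane. In compact myelin the cytoplasmic faces of the membrane are held together by basic proteins such as the product of Mbp. Non-compact parts, namely the inner and outer loops, the paranodes and the cytoplasmic channels, hold other proteins, among them CNPase, MAG, MOG and OPALIN. Mbp RNA is carried out along the oligodendrocyte processes and translated at the myelin sheath, and Mobp RNA is found there too.

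Levels are in FPKM, fragments per kilobase of each gene and relative to the library's total. A single length per gene was used whatever its transcripts, so comparisons of level between genes are approximate. Comparisons of the same gene between libraries do not depend on that length. Where 3 values of a group are listed, they stand for replicates 1 to 3 in that order. The libraries held 17647556 to 20813211 reads in genes. The least covered value of any member was Opalin in KO replicate 2, with 333 reads, and Mbp had at least 48113 reads in every library. For Cntnap4 the WT libraries gave 2.03, 3.59 and 4.91 FPKM, and the KO libraries 1.61, 1.00 and 1.48. The library labelled KO replicate 1 went against its sex label: it had Xist, the RNA that coats the inactive X, at 43.0 FPKM and 0 reads on 4 Y-linked genes, where the other 5 libraries had 2831 to 4001. KO replicate 2 stood apart in neuronal markers. The summed level of 8 excitatory neuron markers was 18.9 to 19.3 FPKM in WT, 41.6 and 41.2 FPKM in KO replicates 1 and 3, and 148 FPKM in KO replicate 2. Rspo2, a marker of basolateral amygdala projection neurons, averaged 0.438 ± 0.0751 FPKM over the WT libraries against 0.915 ± 0.188 over the KO libraries, all 3 of which exceeded every WT library. These levels are low, near the 0.5 FPKM used as filter and pseudocount. The 8 striatal projection neuron markers summed to 769 to 1031 FPKM in WT and 1100 to 1563 FPKM in KO. Results below are therefore also given without KO replicate 1 and without KO replicate 2.

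Of the 9 members, 7 measured lower in all 3 KO libraries than in any WT library, by 31.0% to 53.1% of the WT mean, and Mbp and Mobp did not. The 7 were Opalin, Mog, Ermn, Mag, Tspan2, Cnp and Cldn11. Such a separation was found for 10.8% of the 16155 genes tested. The same 7 members were lower at an unadjusted p under 0.05 in limma, against 6.85% of all genes tested. None of the 9 passed an adjusted p of 0.05 in limma over all genes (lowest adjusted p = 0.184), a threshold passed on the lower side by 0.00619% of genes. In voom, limma's method for reads, 0 members passed as well (lowest adjusted p = 0.0917), with 7 lower at an unadjusted p under 0.05. The share of all genes lower at that p in voom is not given here, and the 6.85% above belongs to the limma fit. The median log2 change of the 9 members, taken as KO minus WT of log2(FPKM + 0.5), was -0.67, and the median of all genes tested was 0.01. Without KO replicate 1 the count was 7, with 6.33% of all genes lower at that p, and without KO replicate 2 it was 7, with 5.98% of all genes. The log2 changes of those 7 genes ran from -0.98 to -0.59 without KO replicate 1 and from -0.99 to -0.41 without KO replicate 2. The median change of all 9 was -0.72 in the former case and -0.47 in the latter. In bulk tissue, fewer oligodendrocytes and less RNA per oligodendrocyte cannot be told apart. The summed excitatory and striatal markers given above also differed between the groups, and the part of tissue composition was not tested.

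**Figure D1:**
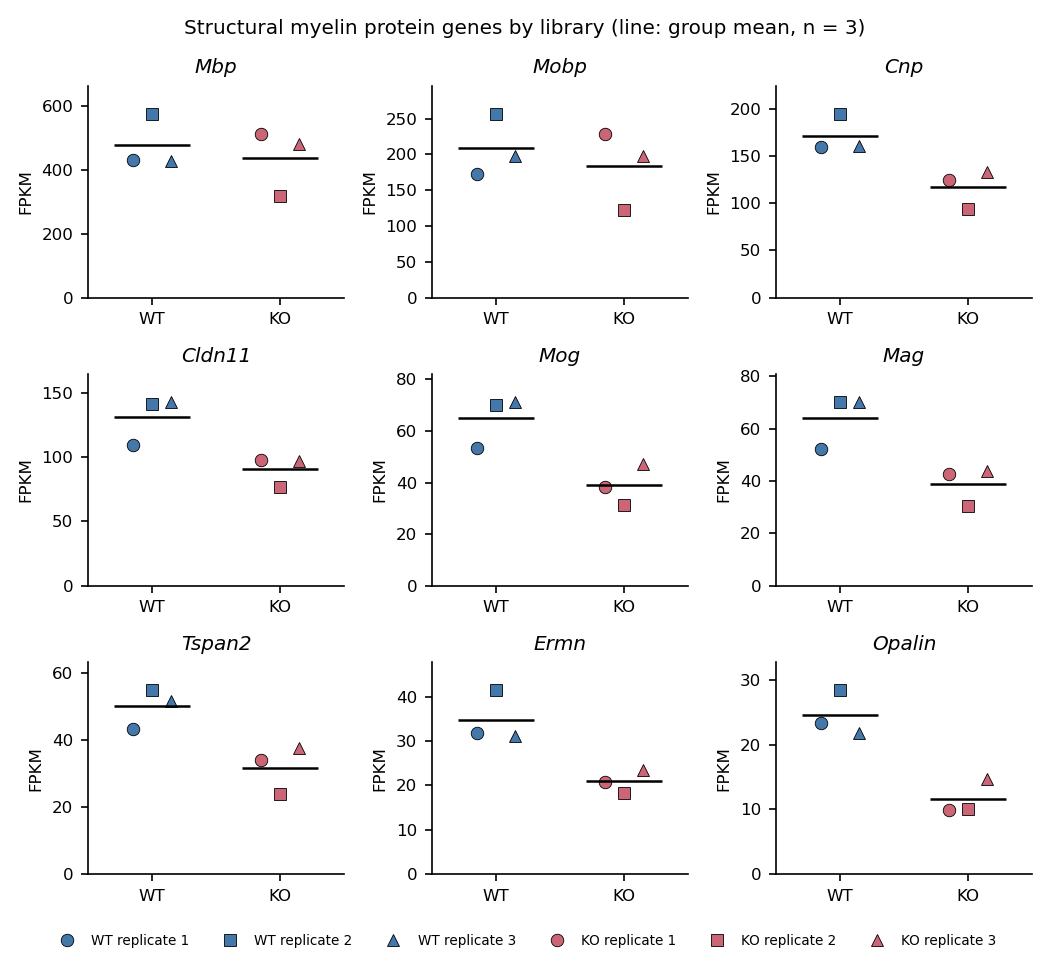
FPKM of the 9 members in each library (vertical axes from 0, a separate scale for each gene; circle, square and triangle stand for replicates 1 to 3; the line is the group mean, n = 3). The KO points lie below all WT points in 7 panels and overlap them for Mbp and Mobp.

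Mbp, the myelin basic protein gene, was the most abundant member and overlapped between the genotypes. The gene (ENSMUSG00000041607, chromosome 18, 82475146 to 82585637, plus strand, GRCm38) gave 429.7, 575 and 428 FPKM in the WT libraries, against 513, 316 and 480.1 FPKM in the KO libraries. KO replicates 1 and 3 thus lay within the WT range, and KO replicate 2 was the lowest of the 6 libraries. The WT mean was 478 ± 84.5 FPKM and the KO mean 436 ± 105 FPKM (SD, n = 3 each). The log2 change was -0.15 ± 0.21 (SE), with a 95% interval from -0.64 to 0.35 and a limma adjusted p of 0.771, so changes as large as those of Cnp and Cldn11 lie inside the interval. Leaving out KO replicate 1 gave -0.28 and leaving out KO replicate 2 gave 0.069, so the sign rested on that library. The locus also carries the golli transcripts, which start upstream and are made in neurons as well. RefSeq lists 17 transcript models for Mbp, and the table gives 1 summed value for the gene.

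Mobp, which encodes a second family of small basic proteins of compact myelin, behaved most like Mbp. It lies on chromosome 9 (ENSMUSG00000032517, 120149707 to 120181484, plus strand) and came after Mbp in level. The WT libraries gave 173, 257 and 197 FPKM, and the KO libraries 229, 122 and 198 FPKM. As for Mbp, only KO replicate 2 lay below the WT range, and KO replicate 1 was above the WT mean. The log2 change was -0.22 ± 0.25 (95% interval -0.83 to 0.39, limma adjusted p = 0.712), with -0.40 when KO replicate 1 and 0.047 when KO replicate 2 was left out.

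Cldn11 encodes claudin 11, the tight junction protein that seals the myelin lamellae along the radial component. The gene (ENSMUSG00000037625, chromosome 3, 31149920 to 31164324) gave 109, 141 and 143 FPKM in the WT libraries, against 98.0, 76.5 and 96.8 FPKM in the KO libraries. The groups did not overlap, with the highest KO library close under the lowest WT library. KO stood at 69.0% of WT, a log2 change of -0.53 ± 0.14 (limma adjusted p = 0.218).

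Cnp encodes CNPase, the enzyme and membrane-anchored protein that keeps cytoplasmic channels open in myelin. It lies on chromosome 11 (ENSMUSG00000006782, 100574904 to 100591729, plus strand) and came after Mobp in level. Its WT libraries gave 159, 195 and 161 FPKM, and its KO libraries 124, 93.4 and 133 FPKM. All KO libraries were below all WT libraries, at 68.1% of WT on average, and the log2 change was -0.56 ± 0.15 (limma adjusted p = 0.218). Its interval overlaps that of Dnajc7 on the minus strand, which was at 30.1 to 33.7 FPKM in all 6 libraries. Whether counting used strand is not named in the sources used here, and reads in the shared part are uncertain.

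Mag and Mog encode surface glycoproteins at opposite faces of the sheath. MAG sits on the innermost, periaxonal membrane and binds the axon, and MOG is displayed on the outermost lamella. Mag (ENSMUSG00000036634, chromosome 7, 30899176 to 30914873, minus strand) gave 52.3, 70.0 and 70.2 FPKM in the WT libraries, against 42.6, 30.5 and 43.8 FPKM in the KO libraries. Mog (ENSMUSG00000076439, chromosome 17, 37010743 to 37023398, minus strand) gave 53.2, 70.1 and 71.2 FPKM in the WT libraries, against 38.1, 31.2 and 47.3 FPKM in the KO libraries. Both genes had WT replicate 1 as the lowest WT library and KO replicate 2 as the lowest of all. Their mean levels, 64.2 ± 10.3 FPKM for Mag and 64.9 ± 10.1 FPKM for Mog in WT, did not differ beyond the spread between libraries. The log2 change was -0.72 ± 0.17 for Mag and -0.74 ± 0.18 for Mog (limma adjusted p = 0.205 for each).

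Opalin, whose product is a sialylated membrane protein of paranodes and inner loops, had the lowest level and the most negative change of the 9. The gene (ENSMUSG00000050121, chromosome 19, 41062474 to 41077113, minus strand) gave 23.4, 28.5 and 21.9 FPKM in the WT libraries, against 9.89, 10.0 and 14.7 FPKM in the KO libraries. Even the highest KO library was well below the lowest WT library. KO stood at 46.9% of WT, and the log2 change of -1.07 ± 0.17 (95% interval -1.48 to -0.67, limma adjusted p = 0.184) was exceeded on the negative side by 0.600% of all genes tested. Leaving out KO replicate 1 gave -0.98, and leaving out KO replicate 2 gave -0.99.

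Ermn and Tspan2 complete the group. Ermn encodes ermin, an actin-binding protein of mature oligodendrocytes (ENSMUSG00000026830, chromosome 2, 58045113 to 58052864). Its WT libraries gave 31.9, 41.5 and 31.1 FPKM, and its KO libraries 20.9, 18.3 and 23.5 FPKM, a log2 change of -0.72 ± 0.14 (limma adjusted p = 0.187). Tspan2 encodes a tetraspanin, a membrane organiser of myelin (ENSMUSG00000027858, chromosome 3, 102734529 to 102801513). Here the WT libraries gave 43.4, 54.9 and 51.6 FPKM, and the KO libraries 33.9, 23.7 and 37.5 FPKM, a log2 change of -0.67 ± 0.18 (limma adjusted p = 0.218). Neither gene overlapped between the groups. Among the KO libraries, replicate 2 was lowest for both.

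**Figure D2:**
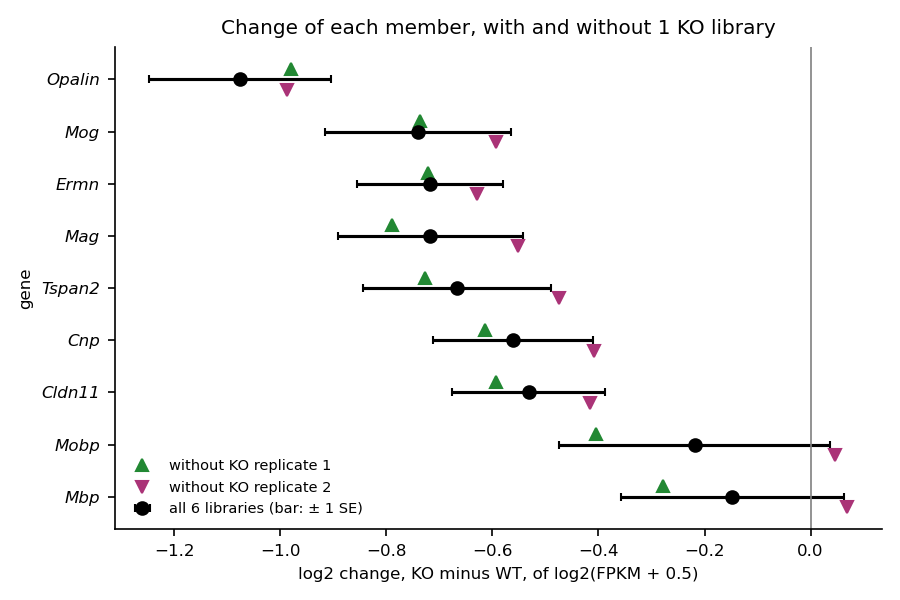
Log2 change, KO minus WT, of each member on the log2(FPKM + 0.5) scale (circle: all 6 libraries with ± 1 SE; triangles: without KO replicate 1 or 2). Mobp and Mbp cross 0 without KO replicate 2, and the other 7 genes stay between -0.41 and -0.99 in both leave-outs.

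Seen library by library, the 9 genes lay close together in WT and further apart in KO. Relative to each gene's own WT mean, the SD over the 9 genes was 0.08, 0.07 and 0.13 log2 across the WT libraries, and all 9 were above their WT mean in WT replicate 2. The corresponding SD was 0.43, 0.20 and 0.23 across the KO libraries. KO replicate 1 had the widest range, from Opalin at -1.26 to Mobp at 0.15, and Mbp and Mobp were the 2 genes above their WT mean there. In KO replicate 2 all 9 were below it, from -1.25 for Opalin to -0.58 for Mbp. In KO replicate 3 they ran from -0.71 for Opalin to 0.02 for Mbp. Centring on the WT mean makes the WT spread smaller than the KO spread by construction, and the difference in spread was not tested.

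**Figure D3:**
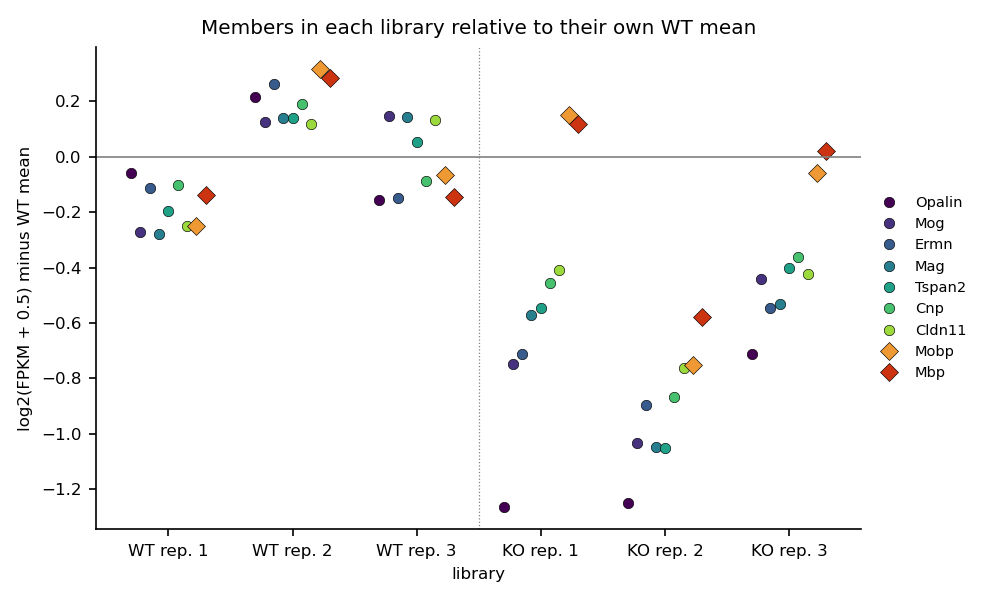
Level of each member in each library as log2(FPKM + 0.5) minus that gene's WT mean (dotted line: between WT and KO). Mbp and Mobp (diamonds) lie above the other 7 genes in all 3 KO libraries, narrowly so for Mobp in KO replicate 2, and also, by a small margin, in WT replicate 2, and within the scatter of the other genes in WT replicates 1 and 3.

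The level of Mbp relative to the other 8 genes was higher in each KO library than in any WT library. Log2 Mbp minus the mean log2 of the other 8 was 2.74, 2.78 and 2.54 in the WT libraries, against 3.38, 3.07 and 3.14 in the KO libraries. The difference, KO minus WT, was 0.51 log2, with a pooled SD between libraries of 0.15. It was 0.42 without KO replicate 1, 0.57 without KO replicate 2 and 0.53 after a trend with gene length was removed. As a share of the summed FPKM of the 9 genes, Mbp made up 40.0%, 40.1% and 36.4% in WT and 46.2%, 43.8% and 44.7% in KO. The other 8 include the 7 genes that measured lower in every KO library, so the shift largely restates that result. Because the genes were grouped with earlier results known, no p is attached to this combined value.

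Singly, Mbp was set against each of the 8 genes by the log2 ratio per library. For 7 of 8 genes the KO ratios lay above all WT ratios. They are the 7 members already named as lower in KO, so this count largely restates that result. How often such ratios separate the groups over all genes tested is not given here. The 8 ratios share Mbp, and an exact two-sided permutation test of 3 against 3 samples cannot give a p below 0.1, so they are a description. The shift in the ratio ran from 0.38 log2 for Cldn11 to 0.93 log2 for Opalin. Mbp was 18.3, 20.2 and 19.5 times the level of Opalin in the WT libraries, against 51.8, 31.6 and 32.6 times in the KO libraries. The exception was Mobp, for which Mbp was 2.48, 2.24 and 2.17 times as high in WT and 2.24, 2.58 and 2.42 times in KO (shift 0.07 log2, groups overlapping). Mobp itself, set against the 7 remaining genes, shifted by 0.50 log2.

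Mbp and Mobp were also the 2 most abundant members and those with the longest gene models, at 8403 and 6849 bases in the table. By mean level over all libraries the order was Mbp, Mobp, Cnp, Cldn11, Mog, Mag, Tspan2, Ermn and Opalin, at 457, 196, 144, 111, 51.9, 51.6, 40.8, 27.9 and 18.1 FPKM. This order, and the fold levels between genes, depend on the gene lengths used. The part of level in the members' differences was not tested.

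**Figure D4:**
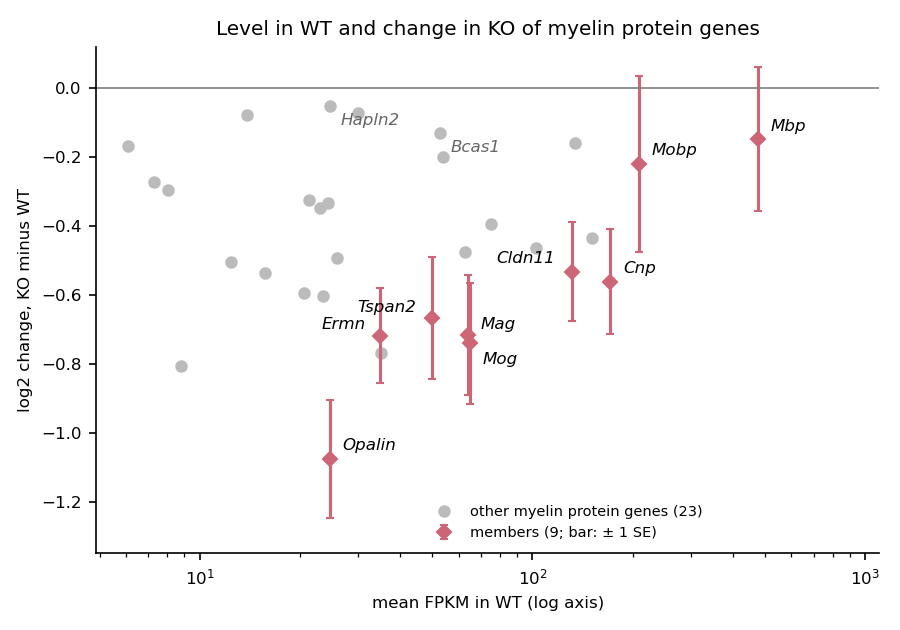
Mean FPKM in WT (log axis) against log2 change, KO minus WT, for the 9 members (diamonds, ± 1 SE) and 23 other myelin protein genes (grey). Mbp and Mobp lie at the high end of level with changes of -0.15 and -0.22, and the grey genes run from -0.81 (Pllp) to -0.05 (Hapln2).

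Other genes of myelin and of the oligodendrocyte lineage were counted from lists. These lists were chosen with earlier results of these data known, so the counts are a description. Of 23 other myelin protein genes, 15 were lower and 0 higher at an unadjusted p under 0.05 (6.85% of all genes lower), and the median log2 change was -0.35. The smallest p values belonged to Pllp (plasmolipin, -0.81), Gpr37 (a G protein-coupled receptor, -0.59), Tmem88b (-0.77) and Nfasc (neurofascin, -0.32). Of 10 lipid and metabolic enzyme genes, 6 were lower and 0 higher, with a median of -0.50. They were led by Enpp2 (autotaxin, -0.79), Gal3st1 (the sulfotransferase of sulfatide synthesis, -0.51), Aspa (aspartoacylase, -0.67) and Fa2h (fatty acid 2-hydroxylase, -0.48). No gene of either list passed the adjusted threshold.

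Transcription factors and early stages had medians nearer 0. At an unadjusted p under 0.05, 6.85% of all genes tested were lower. Of 12 lineage factor genes, 5 were lower and 0 higher at that p, with a median of -0.24. The leading genes were Sox10 (-0.41), Tcf7l2 (-0.49), Olig1 (-0.67) and St18 (-0.51). Myrf, the factor that drives myelin genes, had a log2 change of -0.19. Of 14 genes of precursors and newly committed cells, 3 were lower and 0 higher, with a median of -0.18, namely Gpr17 (-0.49), Enpp6 (-0.49) and Pcdh15 (-0.35), and Vcan (-0.24) came next by p. Genes of these 2 lists passing the adjusted threshold numbered 0. Differences between the lists were not tested. Of 5 peripheral myelin genes, 2 averaged at least 0.5 FPKM and were tested, Drp2 (0.11) and Ncmap (0.07).

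**Figure D5:**
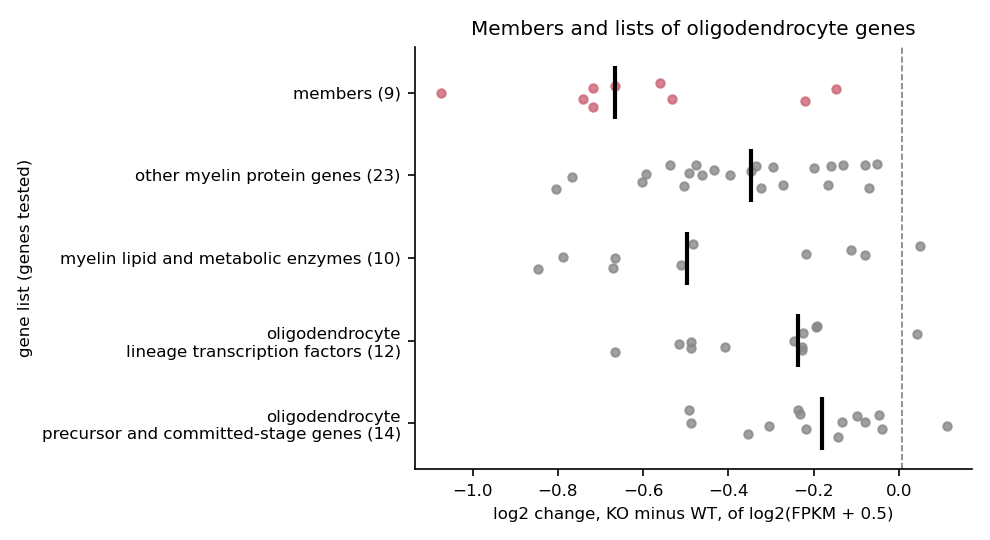
Log2 change, KO minus WT, of single genes in the 9 members and 4 lists (numbers of genes tested in brackets; bar: list median; dashed line: median of all genes tested, 0.01; vertical scatter is only for display). Member medians and list medians run from -0.67 for the members to -0.18 for precursor and committed-stage genes.

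The profiles most like these genes over the 6 libraries were sought among 7704 other protein-coding genes averaging 5 FPKM or more. Likeness was the root mean square difference of log2 values after centring each gene on its own mean. Nearest to Mbp were P3h4 (0.05), Bcas1 (0.05), Myrf (0.06), Fam131c (0.08) and Nkain4 (0.08), and among the members Mobp (0.09). Bcas1, a gene of early myelinating oligodendrocytes, gave 46.1, 63.9 and 48.6 FPKM in the WT libraries, against 55.7, 34.1 and 57.3 FPKM in the KO libraries, again highest in WT replicate 2 and lowest in KO replicate 2. Nearest to the mean profile of the other 8 were Unc13c (0.03), Kif5b (0.06), Adamts4 (0.08), Evi2a (0.08) and Prr18 (0.08). Kif5b, a kinesin heavy chain, gave 68.3, 88.7 and 72.4 FPKM in the WT libraries, against 50.8, 42.4 and 59.8 FPKM in the KO libraries. Likeness over 6 libraries is a description only.

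Markers of other cell types moved with the groups to different extents. At an unadjusted p under 0.05, 6 of 8 excitatory neuron genes and 4 of 8 striatal projection neuron genes were higher in KO and 0 lower. Their median log2 changes were 1.00 and 0.53. Of all genes tested, 8.36% were higher and 6.85% lower at that p, the shares to set beside each count in this paragraph. Of 8 general neuronal genes 1 was higher and 0 lower (median 0.08). Of 8 genes of hypothalamic, thalamic and septal neurons 2 were lower and 0 higher (Zic1 and Tcf7l2, the latter also among the lineage factors above), and all 8 had negative changes with a median of -0.65. Their summed level, in WT mostly that of the neuropeptide genes Avp and Oxt, was 515 to 982 FPKM in WT against 1090, 16.6 and 366 FPKM in KO replicates 1 to 3. Of 8 microglial genes 4 were lower and 0 higher (median -0.23, summed level 198 to 216 FPKM in WT and 171 to 208 FPKM in KO). Astrocyte genes had 0 of 8 in either direction (median -0.01, sums of 423 to 477 and 421 to 474 FPKM). Endothelial and pericyte genes had 1 of 8 higher (median 0.06, sums of 85.3 to 111 and 84.3 to 93.8 FPKM), and genes of meninges and choroid plexus 1 of 7 tested lower (median 0.01, sums of 32.9 to 46.1 and 15.5 to 32.9 FPKM). T cell genes had 1 of 3 tested higher, Cd4 (median 0.18), while Cd3e was at most 0.0521 FPKM. No marker in any list was at 0 in all libraries. KO replicate 2, lowest in 8 of the 9 members, was highest in excitatory and striatal markers, and the part of tissue composition in the members' differences was not tested.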

How the data were processed

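Per the labels' protocols, total RNA was isolated with a column kit, and a SMARTer kit for mRNA was used to build the libraries. The genome build was GRCm38 (mm10), per the submitters' processing notes. The aligner, counter, annotation release and use of strand are not named in the sources used here. The authors deposited FPKM values for 54532 genes, with 0 columns of sample values left unmatched. FPKM times gene length gave whole reads (tolerance 0.01) for 100% of nonzero values. Reads carry no molecular identifiers.

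Values were tested with limma 3.58.1 in R 4.3.3 (trend, robust) on log2(FPKM + 0.5), over the 16155 genes averaging 0.5 FPKM or more, with Benjamini-Hochberg adjustment over all of them and a threshold of 0.05. This scale understates changes of low genes, and more than slightly for those near 0.5 FPKM. Rspo2, averaging 0.438 FPKM in WT and 0.915 FPKM in KO, had a log2 change of 0.59. For Opalin, the lowest member, a pseudocount of 0.1 gave -1.10. The script was tested on simulated data. Whether samples were separate animals beyond their numbering is not stated, so p-values measure only the spread between these samples.

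The 9 genes and all lists were chosen with earlier results of these data known. Named list genes are the 4 with the smallest p per myelin or lineage list, or any of opposite sign to the list median at an unadjusted p under 0.05; Cntnap4, Xist and the 5 nearest profiles were also set by rule. Other names (Myrf, Rspo2, Zic1, Avp, Oxt, Cd4, Cd3e, Dnajc7, and those under other observations) were chosen after their values were seen. Some genes of the lists and of the naming rule are not reported here and are in no list count. Alternatives covered pseudocount, filter, scaling, variance model, voom on recovered reads, protein-coding genes only, a replicate block and leaving out each library. Removal of a gene length trend (loess span 0.5) was added after seeing the data.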

Additional observations from a re-analysis of the deposited data

How the results depend on the processing

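Of the 9 members, 7 were lower in KO at an unadjusted p under 0.05 in each of the 20 alternatives run. Among these alternatives, the share of all genes lower at that p is given only for fits lacking KO replicate 1 (6.33%) or KO replicate 2 (5.98%). The totals of all genes below count both directions, so they are not that share. Of the members, 0 passed the limma or voom adjusted threshold in any alternative. The lowest adjusted p of any member was 0.0857, for Opalin after rescaling to an equal FPKM sum. The changes of Mbp and Mobp changed sign when KO replicate 2 was left out. Over the libraries left out in turn, Mbp ran from -0.28 to 0.069 and Mobp from -0.40 to 0.047. The median change of the 9 ran from -0.80 (without KO replicate 3) to -0.47 (without KO replicate 2), and the shift of Mbp against the other 8 from 0.42 to 0.57 over all alternatives run for it. The number of genes past the adjusted threshold among all genes, 2 by limma with 2457 at an unadjusted p under 0.05, was 5 after rescaling to an equal FPKM sum and 1 under quantile normalization or without the length trend. It was 0 with a pseudocount of 0.1, without a filter, at a mean of at least 5 FPKM, with the sum taken without mitochondrial genes, in voom and for protein-coding genes only, where 1529 to 3065 genes had an unadjusted p under 0.05. Leaving out single libraries gave 0 to 9, with 1520 to 2251 genes at that p, and the cause was not tested. With the replicate block the number was 0, with 1664 genes at an unadjusted p under 0.05, and all 7 members kept an unadjusted p under 0.05 (lowest adjusted p = 0.349). Same-numbered samples did not deviate together (correlations of -0.09, -0.14 and -0.07), which gave no sign that the numbers pair the samples. So few libraries cannot exclude such a pairing. With 3 libraries a group, the 95% interval of Mbp, from -0.64 to 0.35, sets what can be said of it.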

Other observations

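In KO replicates 1 and 3, as for Mbp, some other oligodendrocyte genes were above their WT mean, where about 50.3% of all genes tested were above it in each. Of the 23 other myelin protein genes, 4 were above their WT mean in KO replicate 1, 0 in KO replicate 2 and 4 in KO replicate 3. Hapln2, whose product links hyaluronan at nodes of Ranvier, was 33.2, 14.8 and 26.7 FPKM in the KO libraries against 24.7 ± 4.04 FPKM in WT (SD, n = 3). Bcas1 was above its WT mean in KO replicates 1 and 3, with the values given above. The deacetylase gene Sirt2 was 31.8, 24.5 and 29.1 FPKM against 29.9 ± 3.18, and Anln was 8.01, 4.43 and 5.72 FPKM against 7.30 ± 1.35. The other 2 genes above their WT mean in KO replicate 3 were Trf, at 6.78 FPKM against 6.09 ± 1.56, and Pmp22, at 14.5 FPKM against 13.8 ± 3.30. Of the 12 lineage factor genes, 4, 0 and 1 were above their WT mean in KO replicates 1 to 3, and of the 14 precursor and committed-stage genes 4, 2 and 2. Of the 10 enzyme genes the counts were 2, 1 and 1. Differences between the KO libraries were not tested, and neither was the part of the sex transcripts of KO replicate 1.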
